A study of Mus musculus with 6 samples.

Results

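The 10 genes described here encode precursors of secreted neuronal peptides: Tac1, Oxt, Avp, Cck, Vgf, Penk, Pdyn, Sst, Npy and Scg2. Each was found by its symbol as 1 row of its own, 10 of 46951 rows in the table of tumors and 10 of 46952 rows in the table of cultured cells. The genes were picked with earlier tumor values of this series in view, so their tumor levels are given as a description, with no test. RNA was sequenced from 6 mouse C57BL/6 libraries, 1 for each group. Glioma-initiating cells (GICs), tumor cells able to seed a new glioma, had been placed in the brains of young and old mice, and the tumors were taken at the onset of symptoms. The 3 tumor groups were a young host, an old host, and an old host labelled as NMN before the tumor, all with the line written ms7080. The 3 GIC groups were cultures set up again from such tumors under the same host names, with the line written 7080X1. NMN is not spelled out in the labels and usually stands for nicotinamide mononucleotide. How old the mice were, how NMN was dosed and how many mice went into a library is not stated in the labels. A tumor library holds RNA of the injected cells and of whatever host tissue came with the piece, while a GIC library comes from culture.

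Neuropeptides are made as long precursors that are cut by convertases, packed into dense-core vesicles and released by neurons upon activity. Different regions of the brain use different peptides: oxytocin and vasopressin come mostly from large neurons of the hypothalamus, substance P, enkephalin and dynorphin are abundant in the striatum, cholecystokinin is abundant in the cortex and hippocampus, and somatostatin and neuropeptide Y mark groups of inhibitory interneurons. Scg2 and Vgf encode granin-type proteins of the vesicles themselves, and transcription of several of these genes responds to neuronal activity through cyclic AMP response elements.

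The promoters of 4 members are shown. Scg2 and Sst were 2 of the 7 members highest in the NMN-before tumor. They are shown because only their member windows held a full cyclic AMP response element. Oxt and Avp are shown as neighbors that were highest in the old tumor. The RefSeq promoter table (GRCm38.p6) held 8 of the 10 members, with 2 start sites for Pdyn. Vgf and Penk had no entry, so their promoters were not searched. Each window is the 250 bases before a RefSeq start site. The gene coordinates given further down are from GENCODE, and their starts can differ. For Scg2 and Sst they reach into the window, to 79440120 and 23890958, so the marked elements lie inside those coordinates. Capitals mark a cyclic AMP response element, TGACGTCA, in Scg2 and Sst and an E-box, CACGTG, in Avp, while the Oxt window held none of the motifs searched.
Scg2 (chr1:79440027-79440276, minus strand): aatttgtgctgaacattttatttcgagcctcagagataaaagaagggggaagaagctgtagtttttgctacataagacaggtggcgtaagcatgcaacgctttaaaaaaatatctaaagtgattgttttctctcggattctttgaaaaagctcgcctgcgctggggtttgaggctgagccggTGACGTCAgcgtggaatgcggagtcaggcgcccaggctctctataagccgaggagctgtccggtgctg
Sst (chr16:23890845-23891094, minus strand): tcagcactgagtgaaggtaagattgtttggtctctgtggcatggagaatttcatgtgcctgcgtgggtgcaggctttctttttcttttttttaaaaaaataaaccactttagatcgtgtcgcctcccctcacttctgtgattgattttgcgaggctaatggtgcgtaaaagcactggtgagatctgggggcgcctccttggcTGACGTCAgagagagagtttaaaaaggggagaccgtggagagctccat
Oxt (chr2:130575919-130576168, plus strand): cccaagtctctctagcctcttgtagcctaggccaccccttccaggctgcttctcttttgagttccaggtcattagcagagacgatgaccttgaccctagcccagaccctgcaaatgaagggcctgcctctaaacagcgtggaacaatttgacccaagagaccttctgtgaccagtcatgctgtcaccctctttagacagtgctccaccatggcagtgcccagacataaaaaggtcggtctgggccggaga
Avp (chr2:130582589-130582838, minus strand): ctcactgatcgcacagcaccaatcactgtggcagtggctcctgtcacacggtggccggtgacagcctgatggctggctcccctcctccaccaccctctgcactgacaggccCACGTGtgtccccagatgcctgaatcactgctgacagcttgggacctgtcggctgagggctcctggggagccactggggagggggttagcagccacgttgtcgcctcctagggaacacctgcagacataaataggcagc
Both strands were searched for 4 motifs. TGACGTCA was in 1.55% of all 32851 windows and in 2 member windows, 68 to 61 bases before the start in Scg2 and 48 to 41 bases before it in Sst. Its shorter form TGACG, which overlaps it, was in 17.8% of windows and in 4 member windows (Scg2, Sst, Tac1 and Cck). CACGTG was in 6.02% of windows and in 3 member windows (Avp, Tac1 and Cck), and TATAAA in 12.4% of windows and in 0 member windows. A match describes the letters of a window only.

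Values are FPKM as deposited, that is, fragments scaled by transcript length and library size, so levels can be set side by side between genes within a library. A difference is the log2 of FPKM plus 1 in one library minus that in another, which understates differences of low genes, and a size of 1 or more is called 2-fold. With 1 library per group there is no replicate error, and no test between groups exists. Low FPKM values came in whole steps of 1 fragment, which gave scaling depths of 11.22 to 18.86 M fragments (M for mega) for tumors and 9.70 to 12.7 M for GICs. From these, each value was given a 95% Poisson interval, computed for the shortest annotated coding transcript of at least 400 bases and therefore wide for genes with several transcripts. It covers counting error alone, not the spread between mice. In bulk tissue, fewer cells of a type and less RNA per cell cannot be told apart.

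**Figure D1:**
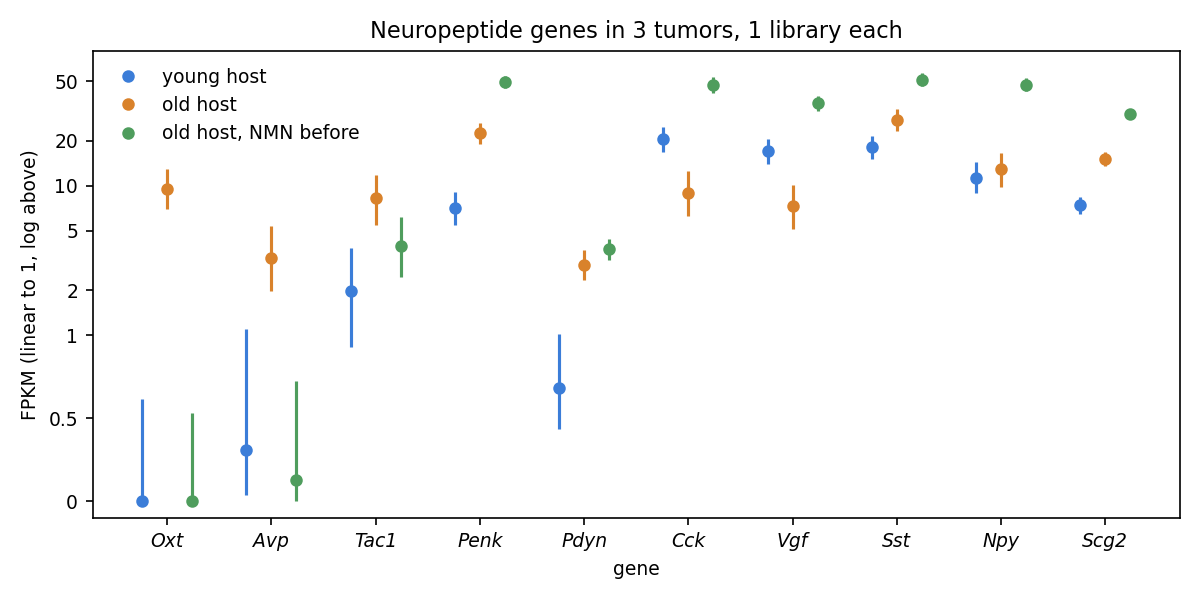
FPKM of the 10 neuropeptide genes (vertical axis, linear up to 1 and logarithmic above) in the young-host, old-host and NMN-before old-host tumor, 1 library each; points are deposited values and lines are 95% Poisson counting intervals. Oxt, Avp and Tac1 are highest in the old tumor, and the other 7 genes are highest in the NMN-before tumor.

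Oxt and Avp, which encode the precursors of oxytocin and vasopressin, were far higher in the old tumor than in the other 2 tumors. The genes are neighbors on chromosome 2 (GRCm38), transcribed toward each other with 3565 bases between them: Oxt from 130576173 to 130577054 on the plus strand and Avp from 130580620 to 130582554 on the minus strand. Oxt was listed at 0 FPKM in the young tumor, 9.56 in the old tumor and 0 in the NMN-before tumor. The old-tumor value stands for about 44 fragments, with an interval of 6.98 to 12.9 FPKM. In the other tumors, the interval of a count of 0 reached up to 0.617 FPKM in the young and 0.532 FPKM in the NMN-before tumor. The level of 3 fragments, used further down as a floor, was 0.502 FPKM in the young and 0.432 FPKM in the NMN-before tumor. Avp was at 0.310 FPKM in the young, 3.30 in the old and 0.127 in the NMN-before tumor, about 2, 17 and 1 fragments. The old-tumor interval of Avp, 1.97 to 5.41 FPKM, lay above those of the young (0.0368 to 1.10) and NMN-before tumors (0.00329 to 0.724).

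Other hypothalamic genes were mostly near 0. Of the 12 genes in the hypothalamus list, 11 had a row of their own and 2 reached 1 FPKM in a tumor, and their FPKM summed to 5.72 in the young, 7.36 in the old and 7.09 in the NMN-before tumor. The number listed at 0 was 7, 4 and 3 of 11. Pomc, the precursor of corticotropin and endorphin, was at 4.64, 2.88 and 2.75 FPKM, and Trh, the precursor of thyrotropin-releasing hormone, at 0.107, 2.43 and 3.29 FPKM. Trh was thus highest in the NMN-before tumor, in which Oxt was listed at 0. The peptide genes of the lateral hypothalamus were at their highest in the old tumor but low, Pmch at 0, 0.736 and 0.180 FPKM and Hcrt at 0, 0.404 and 0.124 FPKM. Otp and Sim1, transcription factors of the neurons that make oxytocin and vasopressin, were at 0.176 and 0.0245 FPKM in the old tumor. These 6 genes lie below the level set for naming genes and are given because of their place in the hypothalamus. Choroid plexus genes were also mostly higher in the old tumor. Of 6 measured, 5 were higher in the old than in the young tumor, 1 by 2-fold, and 1 was lower. In the NMN-before tumor 5 were lower than in the old tumor, 3 by 2-fold, and 1 was higher. The 11 of 12 genes with a row of their own summed to 65.7, 219 and 42.7 FPKM. Most of this was Ttr, the transthyretin gene, at 24.0, 151 and 9.01 FPKM, and Enpp2, at 37.8, 60.7 and 29.3 FPKM. The part of the hypothalamus and choroid plexus lists in the Oxt and Avp values was not tested.

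Tac1, Penk and Pdyn, precursors of substance P, enkephalins and dynorphins, were each more than 3 times as high in the old as in the young tumor by FPKM ratio, and then parted in the NMN-before tumor. Tac1 lies on the plus strand of chromosome 6, 7554879 to 7565834. It was at 1.96 FPKM in the young, 8.25 in the old and 3.95 in the NMN-before tumor. The ratio of old to young was 4.20, with a counting interval of 1.85 to 9.70, and that of NMN-before to old was 0.479 (0.261 to 0.900). Penk was at 7.11, 22.4 and 49.4 FPKM, highest in the NMN-before tumor. Its ratio was 3.16 (2.34 to 4.33) for old to young and 2.202 (1.83 to 2.66) for NMN-before to old. Penk lies on chromosome 4 from 4133531 to 4138819 on the minus strand. Its table row extends to 4188703 because A830012C17Rik overlaps it on the opposite strand, and that gene has a row of its own, listed at 0 in all 6 libraries. Pdyn (chromosome 2, 129686565 to 129699844, minus strand) was the lowest of the 3, at 0.681, 2.96 and 3.74 FPKM. Its old to young ratio was 4.34 (2.69 to 7.27), while the interval of its NMN-before to old ratio of 1.27 spanned equality (0.957 to 1.69).

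Genes of striatal projection neurons, the neurons in which these 3 precursors are best known, had their highest sum in the old tumor, as did Tac1, while Penk and Pdyn were highest in the NMN-before tumor. Of 10 genes, 9 reached 1 FPKM in a tumor; 9 of 9 were higher in the old than in the young tumor, 2 by 2-fold, and the median log2 difference was 0.68, against -0.01 over all 14335 rows tested. In the NMN-before tumor 8 of 9 were lower than in the old tumor, 0 by 2-fold, and the median was -0.31, against 0.01 over all rows. The summed FPKM of all 10 was 62.9 in the young, 91.1 in the old and 79.6 in the NMN-before tumor. Rgs9, a regulator of G-protein signaling in striatal neurons, was at 9.73, 14.9 and 11.8 FPKM, and Ppp1r1b, the dopamine-signaling protein DARPP-32, at 36.2, 45.6 and 46.9 FPKM. The dopamine receptor genes were lower in level, Drd1, found mostly in Tac1 and Pdyn neurons, at 0.431, 2.09 and 1.12 FPKM and Drd2, found mostly in Penk neurons, at 0.426, 1.89 and 0.649 FPKM. Drd2 and Penk thus differed in order: Drd2 was highest in the old tumor and Penk in the NMN-before tumor. These receptor genes are below the level set for naming, so they were named with their values known. The part of striatal tissue in the 3 precursor values was not tested.

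Cck and Vgf were the members lower in the old than in the young tumor, and both were highest in the NMN-before tumor. Cck, the cholecystokinin precursor (chromosome 9, 121489824 to 121495694, minus strand), was at 20.6 FPKM in the young, 8.90 in the old and 47.3 in the NMN-before tumor. Vgf (chromosome 5, 137026392 to 137033351, plus strand), a granin-like protein that is induced by nerve growth factor and cut into several peptides, was at 17.1, 7.27 and 35.6 FPKM. The ratio of old to young was 0.433 (0.289 to 0.647) for Cck and 0.425 (0.287 to 0.626) for Vgf. The ratio of NMN-before to old was 5.31 (3.71 to 7.74) for Cck and 4.90 (3.46 to 7.09) for Vgf. Both genes kept nearly the same proportions over the 3 tumors.

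The lists of cortical excitatory neurons and of activity-induced genes had the same lowest and highest tumors only in part. Of 9 cortical genes, 5 were lower in the old than in the young tumor, with a median log2 difference of -0.11, and 8 were higher in the NMN-before than in the old tumor, 3 by 2-fold (median 0.90). Their summed FPKM was 42.5, 37.9 and 116, led by Slc17a7, the vesicular glutamate transporter, at 28.9, 23.9 and 90.8 FPKM. Of 12 activity-induced genes, 10 were lower in the old than in the young tumor (median -0.78, 3 by 2-fold) and 11 were higher in the NMN-before than in the old tumor (median 0.75, 4 by 2-fold). In NMN-before minus young, 5 were higher and 7 lower (median -0.23). Their sum was 201, 115 and 197 FPKM. Nptx2, a synaptic pentraxin, was at 7.57, 3.66 and 30.7 FPKM, Arc, an immediate early gene of synapses, at 8.84, 4.19 and 15.1 FPKM, and Inhba, an activin subunit gene, at 0.384, 0.384 and 6.70 FPKM. Fosb, a transcription factor of the Fos family, was among the 7 lower in the NMN-before than in the young tumor, at 6.33, 1.64 and 3.39 FPKM. The part of either list in the Cck and Vgf values was not tested.

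Sst and Npy, the precursors of somatostatin and neuropeptide Y, differed by less than 2-fold between the young and old tumors and were highest in the NMN-before tumor. Sst (chromosome 16, 23889573 to 23890958, minus strand) was at 18.2, 27.7 and 51.3 FPKM, the highest member in the old and in the NMN-before tumor. Npy (chromosome 6, 49822710 to 49829507, plus strand) was at 11.3, 12.9 and 47.5 FPKM. The ratio of old to young was 1.52 (1.20 to 1.96) for Sst and 1.14 (0.793 to 1.60) for Npy, whose interval spanned equality. The ratio of NMN-before to old was 1.85 (1.53 to 2.25) for Sst and 3.68 (2.82 to 4.92) for Npy. The 2 peptides, which overlap in a class of cortical interneurons, therefore did not keep one proportion over the tumors, and these last intervals did not overlap.

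Genes of the GABAergic neuron list shared the order of Sst and Npy only in part. Of 11 genes, 9 were measured in a row of their own; 7 were higher in the old than in the young tumor (3 by 2-fold, median 0.35), and 4 of the 9 were higher in the NMN-before than in the old tumor (median -0.09). Their summed FPKM, over the 10 genes with a row of their own, was 34.7, 60.8 and 72.4. Gad1, a GABA-synthesizing enzyme gene, was at 9.39, 20.2 and 26.9 FPKM, and like the sum it had the order of Sst and Npy. The second such gene, Gad2, was at 1.96, 8.82 and 6.66 FPKM and the vesicular GABA transporter gene Slc32a1 at 1.98, 7.63 and 6.04 FPKM. Both were highest in the old tumor and lowest in the young tumor, where 6 members, Sst and Npy among them, were also lowest. Pvalb, the parvalbumin gene of another interneuron class, was at 7.45, 6.93 and 17.6 FPKM. Its young and old values were close, with a log2 difference of -0.09 where those of Cck and Vgf were -1.12 and -1.13. The part of interneurons in the Sst and Npy values was not tested.

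Scg2, which encodes the granin secretogranin II (chromosome 1, 79434669 to 79440120, minus strand), was at 7.40 FPKM in the young, 15.1 in the old and 30.4 in the NMN-before tumor. Its 3 counting intervals, 6.49 to 8.39, 13.7 to 16.8 and 28.7 to 32.1 FPKM, did not overlap. The ratio was 2.05 (1.74 to 2.42) for old to young and 2.01 (1.78 to 2.26) for NMN-before to old. Of 12 other genes of peptide processing and dense-core vesicles with a row of their own, 9 were higher in the old than in the young tumor, 0 by 2-fold (median 0.23), and 9 were higher in the NMN-before than in the old tumor, 1 by 2-fold (median 0.38). Chga, the chromogranin A gene, was the 2-fold one, at 7.49, 10.6 and 39.9 FPKM, a log2 difference of 1.82 where that of Scg2 was 0.96. The convertase gene Pcsk2 was at 7.24, 8.26 and 15.8 FPKM and the vesicle membrane gene Ptprn at 9.53, 12.4 and 23.0 FPKM. Cadps, a gene of vesicle priming, was at 3.23, 4.402 and 6.24 FPKM.

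As a group, 8 of the 10 members were higher in the old than in the young tumor and 2 lower; 48.3% of all 14335 rows tested were higher. By 2-fold, 7 members were apart, where 2.60% of rows were, and 5 of them were higher, where 1.60% of rows were; Cck and Vgf were the lower ones. The median log2 difference was 1.09. In the NMN-before tumor 7 members were higher and 3 lower than in the old tumor, where 51.5% of rows were higher. By 2-fold, 6 were apart, where 3.11% of rows were, and 4 of them were higher, where 1.86% of rows were; Oxt and Avp were the lower ones, and the median was 0.91. Against the young tumor, 8 members were higher in the NMN-before tumor and 1 lower, where 48.8% of rows were higher. By 2-fold, 7 were apart, where 3.77% of rows were, and all 7 were higher, where 2.79% of rows were; the median was 1.31. Setting Oxt at 3 fragments where it was listed at 0 left the first 2 medians at 1.09 and 0.91. Oxt was the highest or the lowest member there, so a smaller difference on the same side could not move them. In NMN-before minus young, where both Oxt values were 0, its difference was kept at 0 and the median of 1.31 was unchanged by construction. The members had been picked from these same differences, so nothing is read from the counts against the shares. The comparisons also share libraries: old minus young shares the old tumor with NMN-before minus old, and the young tumor with NMN-before minus young. The summed FPKM of the 10 genes was 84.6 in the young, 118 in the old and 269 in the NMN-before tumor. The highest member was Cck in the young tumor and Sst in the other 2, but the order at the top was within counting error. In the young tumor the interval of Cck, 16.7 to 24.8 FPKM, overlapped those of Sst and Vgf. In the old tumor that of Sst, 23.4 to 32.6 FPKM, overlapped that of Penk, and in the NMN-before tumor that of Sst, 46.5 to 56.5 FPKM, overlapped those of Penk, Npy and Cck.

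**Figure D2:**
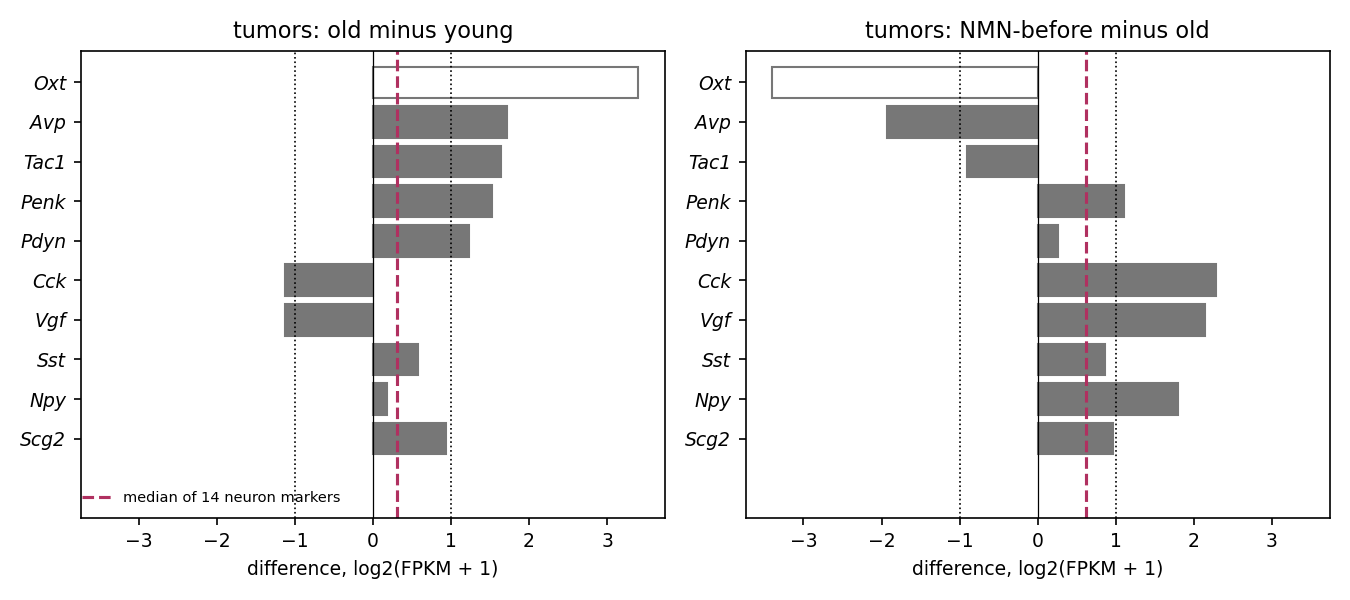
Differences in log2(FPKM + 1) for each gene, old minus young tumor (left) and NMN-before minus old tumor (right); dotted lines mark 2-fold, the dashed line is the median of 14 neuron markers, and the open bar of Oxt rests on values listed at 0. Cck and Vgf point left in the first panel and reach furthest right in the second, and Oxt, Avp and Tac1 point the other way.

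General neuron markers differed between the tumors as well, so the members were also read relative to them. Of 14 measured neuron markers, 12 were higher in the old than in the young tumor and 13 were higher in the NMN-before than in the old tumor, with medians of 0.31 and 0.62; the median of NMN-before against young was 1.07. Their summed FPKM was 433, 509 and 788, with Snap25, a synaptic fusion protein gene, at 78.0, 92.1 and 221 FPKM. Taken relative to these medians, Tac1, Penk and Pdyn were at 1.33, 1.22 and 0.92 in old minus young, and Cck and Vgf at -1.44 and -1.44. In NMN-before minus old, Cck, Vgf and Npy were at 1.67, 1.53 and 1.18, while Sst, Scg2 and Penk were at 0.25, 0.34 and 0.49. Pdyn, Tac1, Avp and Oxt were at -0.36, -1.52, -2.55 and -4.02 there. In NMN-before minus young, Penk was at 1.57, Cck at 0.092 and Vgf at -0.054. Relative to neuron markers 3 rather than 7 members were then 2-fold apart between the NMN-before and young tumors. These were Penk, which was higher, and Oxt and Avp, at -1.07 and -1.29. Oxt was listed at 0 in both tumors, and Avp rested on about 1 and 2 fragments. Their calls thus come from subtracting the marker median of 1.07, not from a measured difference. Sst was at 0.27, 0.25 and 0.38 above the neuron markers in the 3 comparisons. Glioma cell genes differed less, with 5 measured genes at medians of -0.03, -0.11 and -0.12. Microglia genes, 7 of 7 measured, were all higher in the old than in the young tumor (median 0.67) and summed to 168, 257 and 236 FPKM. The medians of old minus young and of NMN-before minus old were 0.14 and -0.51 for 5 thalamus genes, 0.22 and -0.39 for 5 astrocyte genes, 0.35 and -0.39 for 6 oligodendrocyte genes, and -0.09 and 0.29 for 6 endothelial genes.

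**Figure D3:**
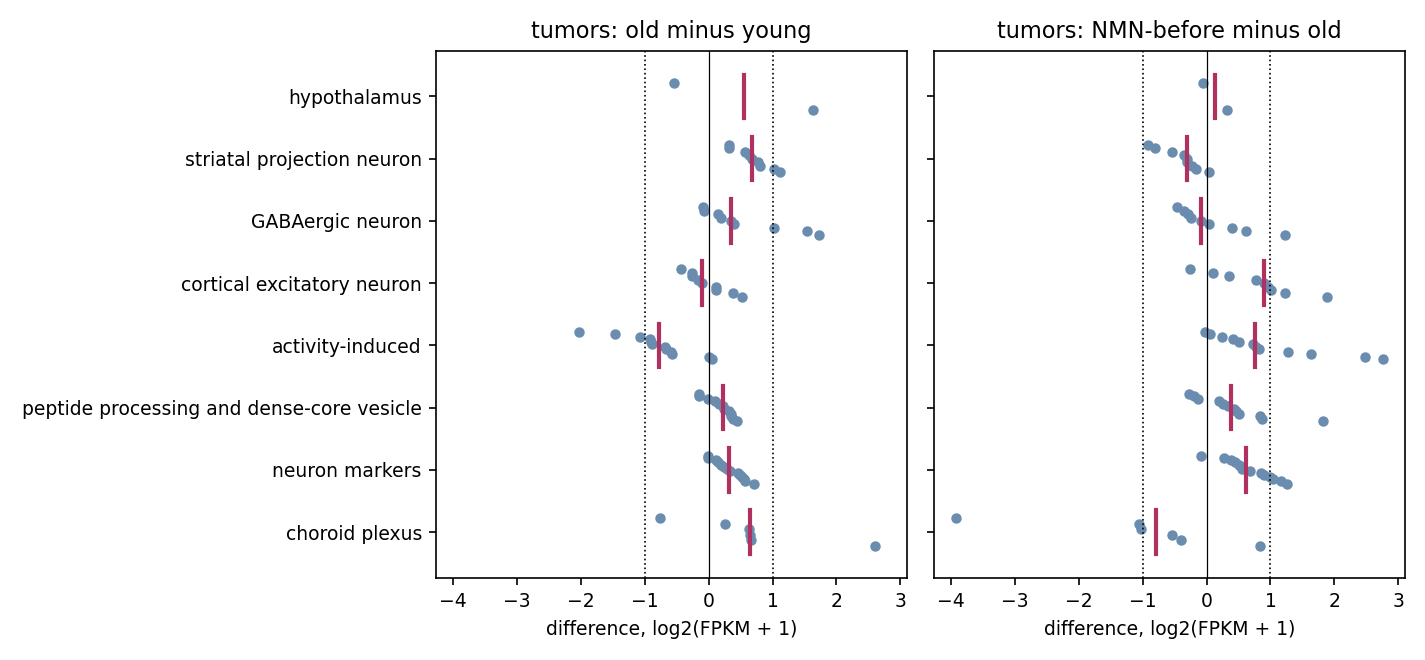
Differences in log2(FPKM + 1) of the measured genes of 8 lists, old minus young tumor (left) and NMN-before minus old tumor (right); each point is 1 gene, the bar is the list median and dotted lines mark 2-fold. The striatal list lies right of 0 in the first panel and mostly left of 0 in the second, while the cortical and activity-induced lists lie mostly right of 0 in the second.

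Further precursors and the receptors were low. Of 32 other neuropeptide precursor genes, 28 had a row of their own and 12 reached 1 FPKM in a tumor. Of these 12, 7 were higher in the old than in the young tumor, 3 by 2-fold, and 8 were higher in the NMN-before than in the old tumor, 3 by 2-fold, with medians of 0.28 and 0.50. Their summed FPKM over 28 genes was 13.3, 17.0 and 24.2, less than the level of Sst alone in each tumor. Of 21 receptor genes of the members, 5 reached 1 FPKM in a tumor: 3 of 5 were higher in the old than in the young tumor (median 0.02) and 5 of 5 were higher in the NMN-before than in the old tumor (median 0.80). Sstr2, a somatostatin receptor gene, was at 1.83, 1.73 and 4.47 FPKM and Cckbr, the brain cholecystokinin receptor gene, at 1.64, 1.06 and 2.95 FPKM. Cckbr had its lowest and highest values in the same tumors as Cck. The oxytocin receptor gene Oxtr stayed low, at 0.222, 0.247 and 0.328 FPKM. These 3 receptors are below the level set for naming and were named with their values known.

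Over the 3 tumors, the coding genes with the most similar pattern were found by the distance between log2(FPKM + 1) values centered on their mean, among 9416 coding rows with at least 5 FPKM in a tumor. With 3 libraries such likeness is easily met, and it is given as a description. Adding 1 FPKM also shrinks the differences of low genes such as Avp and Pdyn, so genes near to them can have other FPKM ratios. Cck and Vgf were each nearest to the other, at a distance of 0.12. The gene nearest to Avp was Zcchc12, at 2.12, 10.9 and 2.005 FPKM and a distance of 0.16, and Zcchc12 ranked second after Ttr for Oxt, at a distance of 1.17. Nearest to Pdyn were Apod, at 65.9, 157 and 189 FPKM, and Mobp, a myelin gene, at 24.6, 54.1 and 67.0 FPKM. Nearest to Penk was the protease gene Klk6, at 0.840, 4.39 and 9.94 FPKM, and nearest to Tac1 was Nrsn2, at 2.49, 7.98 and 3.40 FPKM. For Npy it was Hpcal4, a neuronal calcium sensor gene, at 14.4, 15.9 and 61.8 FPKM. For Sst, the neurofilament gene Nefl was among the nearest 3, and 31 coding rows lay within a distance of 0.2, the most of any member. Scg2 lay nearest to Gm14295 and then to Vstm2l, at 2.40, 4.94 and 11.1 FPKM.

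In GICs, 9 of the 10 members stayed below 1 FPKM in every culture, and Vgf alone was measured. The other 9 were between 0 and 0.490 FPKM, about 10 fragments or fewer each. Sst and Avp were listed at 0 in all 3 cultures, where 3 fragments would correspond to 0.527 to 0.687 FPKM for Sst. Oxt was at 0.401 FPKM in the young culture, about 2 fragments, and listed at 0 in the other 2. Scg2 was at 0.290, 0.285 and 0.470 FPKM in the young, old and NMN-before cultures, with overlapping intervals. Vgf was at 18.97 FPKM in the young, 10.7 in the old and 7.46 in the NMN-before culture. The ratio of old to young was 0.562 (0.389 to 0.809), that of NMN-before to old was 0.700 (0.432 to 1.12) and that of NMN-before to young was 0.393 (0.258 to 0.588). In log2 differences these were -0.78, -0.46 and -1.24, so Vgf, the only member measured, was 2-fold apart in NMN-before minus young alone. Of 12809 rows tested, 2.80%, 5.57% and 6.62% were 2-fold apart in the 3 comparisons. With 1 member measured, no share of members can be set beside these. The 2 tables were treated as normalized separately, and the line is written differently for tumors and GICs, so levels across them are only set side by side: Vgf was at 18.97 FPKM in young GICs and 17.1 in the young tumor, 10.7 and 7.27 with old hosts, and 7.46 and 35.6 with NMN before.

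In the cultures, of 14 neuron markers with a row of their own, 7 reached 1 FPKM in a GIC library, and the 14 summed to 124, 143 and 196 FPKM in the young, old and NMN-before culture. Most of the sum was Map2, a microtubule-associated protein gene, at 94.1, 110 and 135 FPKM, and Thy1, a surface protein gene, was at 13.1, 11.5 and 47.0 FPKM. The synaptic gene Snap25, below the level set for naming in GICs and given because it is named in tumors, was at 0.855, 1.08 and 0.578 FPKM. Of the 12 genes of peptide processing and vesicles, 6 did, among them Cpe, the carboxypeptidase that trims peptide ends, at 211, 153 and 302 FPKM, and Pcsk1n, a convertase inhibitor gene, at 12.2, 9.21 and 10.1 FPKM. All 6 were higher in the NMN-before than in the old culture, 2 by 2-fold (median 0.63). Ptprn was at 5.65, 2.43 and 8.64 FPKM, lowest in the old culture, unlike Vgf, which was lowest in the NMN-before culture. Of 21 receptor genes only Sstr2 reached 1 FPKM, at 1.10, 1.56 and 0.558 FPKM.

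**Figure D4:**
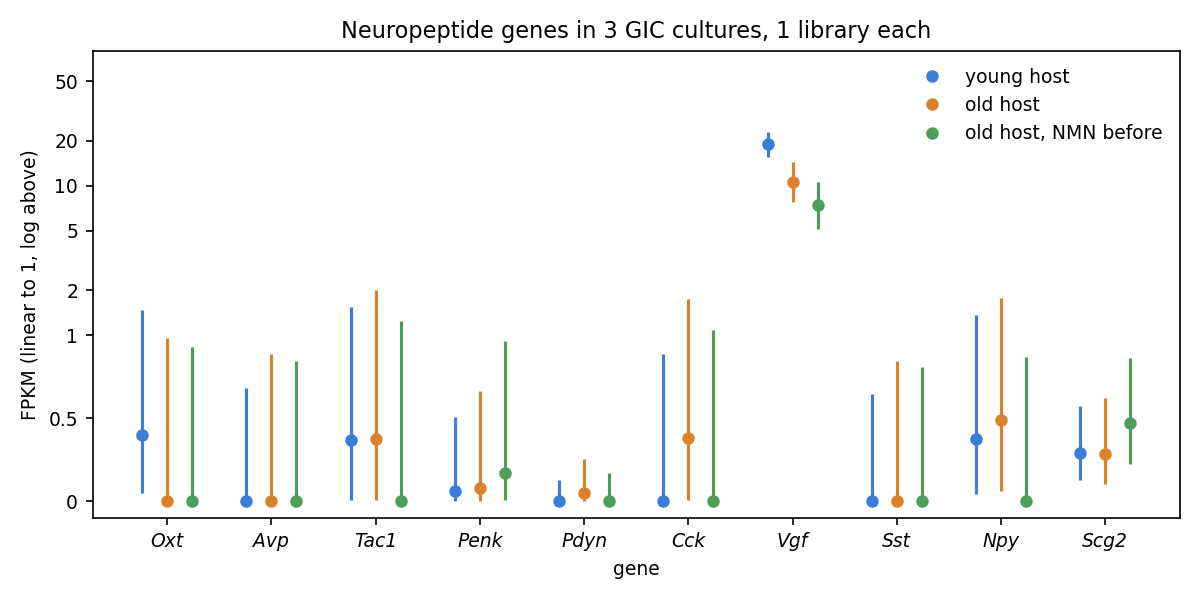
FPKM of the 10 neuropeptide genes in the young, old and NMN-before GIC cultures, 1 library each, on the same kind of axis, with 95% Poisson counting intervals. Vgf lies between 7.46 and 18.97 FPKM, and every other gene lies below 0.5 FPKM.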

How the data were processed

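The authors deposited gene FPKM values, 1 table for 3 tumors and 1 for 3 GIC cultures. Per the labels' protocols, ribosomal RNA was depleted and stranded libraries were sequenced in pairs. The submitters' processing notes name the build GRCm38, the aligner STAR 2.5.4b, Trim Galore 0.6.2 for trimming, bcl2fastq 1.8.4, and Cuffdiff with Cufflinks 2.2.1. Annotation, normalization mode and strand setting are not stated. Counting without strand cannot separate a gene from an antisense one. Rows were matched by symbol. Log2 differences used a pseudocount of 1 FPKM and rows whose maximum within a table reached 1 FPKM. Lists used rows naming 1 gene; Tubb3 was not analysed here. Of repeated rows the highest was used.

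Depth was fitted so that low FPKM values of genes with 1 GENCODE M21 transcript became whole fragments within 0.05; 96.2% to 97.6% did. On simulated data, a depth of 12 M fragments (old tumor, 935 genes) was fitted as 11.9 M and one of 9 M (young GICs, 1057 genes) as 8.94 M. The mean fragment length was fitted too short in both, as 160 for 180 bases and as 140 for 150 bases. Fragment counts of short transcripts also depend on the fitted mean fragment length of 130 to 170 bases. Ratio intervals are exact binomial (Clopper-Pearson). Members, lists and naming rule were chosen with earlier results of these data known. The naming rule takes all members, up to 4 genes per list with at least 5 FPKM and the largest range, and the 3 nearest patterns per member. Alternatives were pseudocounts, filters, scalings, single-gene rows and centering on neuron markers. Python 3.11.15, scipy 1.17.1 and pandas 2.3.3 were used.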

Additional observations from a re-analysis of the deposited data

Results flagged for a closer look

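Vgf differed in opposite directions in tumors and in cultures for NMN-before minus young: its log2 difference was 1.02 in tumors and -1.24 in GICs, both 2-fold. Each value compares 2 libraries, and the difference between them was not tested.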

How the results depend on the processing

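With 6 comparisons and 8 alternatives each, 47 of 48 counts of members 2-fold apart stayed within 1.5 times the main count. The exception was NMN-before against young tumors relative to neuron markers, where 3 rather than 7 members were 2-fold apart. Of these, Oxt and Avp were at or near 0 FPKM in both tumors and were called only through the subtraction. In the same setting Vgf, 2-fold higher as measured, was at -0.054, a changed sign. The alternative subtracts the neuron marker median, here 1.07, by construction. Relative to neuron markers, members under 2-fold in the main setting also changed sign. Tac1 went from 0.74 to -0.33 in NMN-before minus young tumors and Pdyn from 0.26 to -0.36 in NMN-before minus old. Npy went from 0.18 to -0.14 in old minus young. Leaving out only that Vgf value of -0.054, 234 alternative values of single members moved by less than their counting error and 23 by more. Of the 23, 15 were relative to neuron markers, 4 at a pseudocount of 0.1, 2 at 0.5 and 2 with TPM. The last 3 settings moved Oxt and Pdyn alone. Of the 234, 33 with no filter, 33 with single-gene rows and 27 at a filter of 5 FPKM could not move by construction. Single-gene rows could not change a count of members either, nor could dropping the filter in tumors. Apart from the setting with no filter, the GIC counts rest on Vgf alone. A pseudocount of 0.1 took old minus young from 3.40 to 6.59 for Oxt, listed at 0 in the young tumor, and from 1.71 to 3.05 for Avp, within its wide counting error; for Avp it took NMN-before minus old from -1.93 to -3.91. The members' median moved by more than the members' counting error relative to neuron markers, to 0.30 in NMN-before minus old and 0.23 in NMN-before minus young tumors, and to near 0 in GICs with no filter. With 1 library per group no library could be left out. No paired analysis was possible because each group has 1 library and no test was run. Depth limits Oxt, Avp and Tac1 in tumors and every member but Vgf in GICs, which rest on few fragments.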
